A study of Mus musculus with 6 samples.

Results

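The genes described here encode the core of the NF-kB pathway: the NF-kB subunits (Nfkb1, Nfkb2, Rel, Rela and Relb), inhibitors of the pathway (Nfkbia, Nfkbie and Tnfaip3) and the adhesion molecules Icam1 and Vcam1, which are classical target genes. They were chosen by name, with earlier results of these data known, and every probe set that the platform annotation names for 1 of them alone was used. Of the 10 genes, 9 were measured, by 15 of the 20380 probe sets that carry a single gene name, among 12393 genes in all. Nfkb1, which encodes the precursor of a DNA-binding subunit, had no such probe set and was not analysed here. The arrays hold RNA of 6 cultures, 3 plates of A_212 and 3 plates of N_46. A_212 is a mouse cell line derived from adult hypothalamus and N_46 one derived from embryonic hypothalamus. Each is labelled as expressing neuropeptide Y (Npy), and each carries the SV40 T-antigen with which it was immortalised, so that no untransformed cells serve as a control. Neither line had been treated with a cytokine or other agent that the labels name, and plates were collected at 70% confluence in medium with 5% serum. The labels do not give the animals' age, sex or strain.

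NF-kB proteins are dimeric transcription factors that share a DNA-binding and dimerisation region, the Rel homology region. In resting cells IkB proteins such as the product of Nfkbia hold the dimers in the cytoplasm, and signals from receptors for tumour necrosis factor, interleukin-1 or microbial products activate the IkB kinase, which marks the IkB for degradation. The freed dimers enter the nucleus and switch on target genes, among them Icam1, Vcam1 and the genes of their own inhibitors. The activity is therefore set largely by protein degradation and location, which RNA levels do not report. In the hypothalamus the pathway has been studied in inflammation and in the control of feeding.

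The promoters of several members hold matches to the DNA letters that NF-kB dimers recognise. Promoters of 4 members are shown, whether or not they hold a match. They belong to the called genes for which a window was at hand (Icam1, Nfkbie and Rela) and to Nfkbia, the textbook feedback target. Each window runs from 250 bases before to 50 bases after a RefSeq transcription start (GRCm38.p6), 5′ to 3′ on the gene's strand, with positions counted back from -1 just before the start. Capitals mark matches to GGG, any 3 bases, TTCC, or to GGAANTTCC, on either strand, and matches of the 2 motifs may overlap. The windows are chr9:21015690-21015989 on the plus strand for Icam1, chr17:45555450-45555749 on the plus strand for Nfkbie, chr19:5637291-5637590 on the plus strand for Rela, and chr12:55492598-55492897 on the minus strand for Nfkbia.
Icam1: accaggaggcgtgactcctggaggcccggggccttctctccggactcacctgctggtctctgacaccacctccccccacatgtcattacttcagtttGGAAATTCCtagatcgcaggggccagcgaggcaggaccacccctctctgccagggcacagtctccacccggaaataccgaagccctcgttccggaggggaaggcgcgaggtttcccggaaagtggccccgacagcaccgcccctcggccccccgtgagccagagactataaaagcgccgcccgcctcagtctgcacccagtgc
Nfkbie: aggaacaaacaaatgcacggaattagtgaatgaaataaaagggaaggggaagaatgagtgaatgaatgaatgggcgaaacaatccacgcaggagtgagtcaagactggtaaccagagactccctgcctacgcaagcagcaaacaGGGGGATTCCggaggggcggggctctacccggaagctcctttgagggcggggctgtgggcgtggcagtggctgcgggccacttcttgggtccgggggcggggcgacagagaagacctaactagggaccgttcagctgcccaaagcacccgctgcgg
Rela: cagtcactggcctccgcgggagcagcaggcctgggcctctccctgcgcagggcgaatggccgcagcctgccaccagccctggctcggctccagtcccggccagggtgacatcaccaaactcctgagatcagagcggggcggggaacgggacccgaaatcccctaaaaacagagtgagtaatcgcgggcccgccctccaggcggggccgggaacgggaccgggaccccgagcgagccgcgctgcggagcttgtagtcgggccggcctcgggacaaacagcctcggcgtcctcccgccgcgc
Nfkbia: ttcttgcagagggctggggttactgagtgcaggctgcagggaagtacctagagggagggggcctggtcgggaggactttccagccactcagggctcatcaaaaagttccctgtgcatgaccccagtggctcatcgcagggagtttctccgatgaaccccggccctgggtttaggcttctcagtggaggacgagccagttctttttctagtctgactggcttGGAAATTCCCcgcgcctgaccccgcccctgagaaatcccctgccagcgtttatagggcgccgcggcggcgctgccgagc

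Windows were found for 7 of the 9 measured members, in 10 windows because Nfkb2 had 3 starts and Tnfaip3 had 2. Of the Nfkb2 windows 2 overlap and share a match, at 11 to 20 in one and at -225 to -216 in the other. The counts of windows below thus include that site more than once. The motif GGG, any 3 bases, TTCC was found in at least 1 window of 5 of these 7 genes (Nfkb2, Rel, Nfkbia, Nfkbie and Tnfaip3), and in 8 of the 10 windows. Of all 32851 windows of the same length, 5.56% held it, and of 27025 genes 6.31% did. In Nfkbie the match lay at positions -106 to -97 from the start, and in Nfkbia at -29 to -20 on the opposite strand. The wider kappa B consensus was found in windows of 5 of the 7 genes, against 9.55% of all genes, and in 7 of the 10 windows, against 8.46% of all windows. The Icam1 window held neither. It held GGAANTTCC at -153 to -145, a motif chosen after the windows had been read and present in 0.928% of all windows. That motif was also in windows of Nfkbia and Tnfaip3. The Rela window held none of the 3 motifs. A match describes letters and was not tested as a binding site in these lines.

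The deposited values hold no level: the median of every probe set across the arrays is 0. A value says how far a plate lies from that median, and no level can be read from it, so it is not known from these values whether a member was expressed in either line. No source names the log base, which was taken as 2. Gene values are means over the gene's probe sets, and differences are A_212 minus N_46, so that a positive difference is higher in the adult-derived line. They are given with the standard error (SE) of a limma fit over all genes, 3 plates per line, and a gene was called at a Benjamini-Hochberg adjusted p under 0.05. Only 1 line stands for each age of origin, so age and line cannot be told apart, and the p-values set the difference against plate-to-plate spread alone, which may be technical. In bulk RNA a difference in the share of cells that express a gene and a difference in RNA per cell cannot be told apart either.

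Of the 9 measured members, 4 were called, Icam1 and Nfkbie higher in A_212 and Rela and Vcam1 higher in N_46. That is 44.4% of them, where 39.2% of all 12393 genes were called, 18.3% higher in A_212 and 20.9% higher in N_46. The share of members called is thus near that of all genes. For 6 of the 9 the plates of one line all lay above those of the other, against 51.1% of all genes. One member, Icam1, was called with a difference of at least 2-fold, as were 5.83% of all genes. The median difference was 0.10 over the members and -0.06 over all genes. The 7 subunit and inhibitor genes lay between -0.21 and 0.43, and both adhesion targets lay outside that range, in opposite directions.

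**Figure D1:**
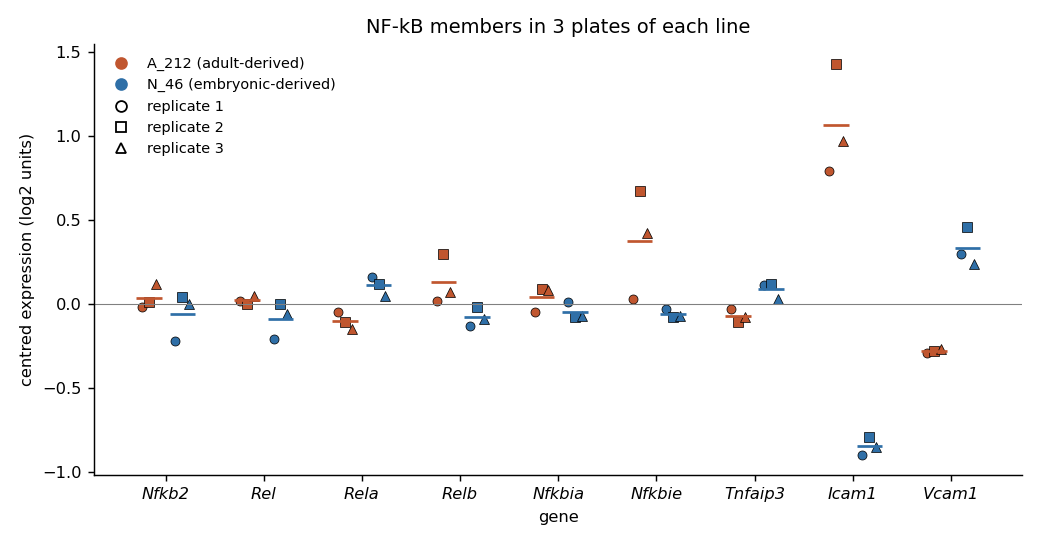
Centred log2 values of the 9 measured members (x axis) in each plate, with replicates 1, 2 and 3 drawn as circles, squares and triangles and the line means as bars. Icam1 is separated most, from 0.79 to 1.43 in A_212 and from -0.90 to -0.79 in N_46, and Vcam1 is separated the other way.

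Icam1 encodes an immunoglobulin-family adhesion molecule of the cell surface that leukocyte integrins bind, and it lies on chromosome 9. Its single probe set read 0.79, 1.43 and 0.97 in the A_212 plates and -0.90, -0.79 and -0.85 in the N_46 plates. All A_212 plates were above all N_46 plates, and the gap between the lines was wider than the spread within either. The difference was 1.91 ± 0.14 (SE, n = 3 plates per line), or 3.75-fold, with a 95% interval of 1.60 to 2.21 and a limma adjusted p of 1.8e-06. It ranked 174th of 12393 genes by how much higher it was in A_212. The call held under all 12 alternatives, with differences from 1.72 to 2.04. The spread between A_212 plates was large, with an SD of 0.33 that exceeded the SD of 98.7% of genes in that line, and replicate 2 was the highest.

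Vcam1, on chromosome 3, encodes another immunoglobulin-family adhesion molecule, bound by the integrin of Itga4 and Itgb1, and is known from activated endothelium and from mesenchymal cells. Averaged over its 3 probe sets, it read -0.29, -0.28 and -0.27 in A_212 and 0.30, 0.46 and 0.24 in N_46. The N_46 plates were all above the A_212 plates, and these averages of the A_212 plates lay almost on one another. The difference was -0.62 ± 0.08 (SE), which is 1.53-fold higher in N_46, with a 95% interval of -0.79 to -0.45 and a limma adjusted p of 0.00010. All 3 probe sets were called in this direction, at -0.60 (1415989_at), -0.89 (1448162_at) and -0.36 (1451314_a_at), with adjusted p-values over all single-gene probe sets of 0.00049, 2.0e-05 and 0.0042. The size thus depended on the probe set while the direction did not. In 1448162_at the A_212 plates read -0.38, -0.38 and -0.36 and the N_46 plates 0.54, 0.65 and 0.36. The A_212 plates lay less close in the other probe sets. There A_212 replicate 2 was the lowest in 1415989_at (-0.34) and the highest in 1451314_a_at (-0.13). The gene's call held under all 12 alternatives.

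**Figure D2:**
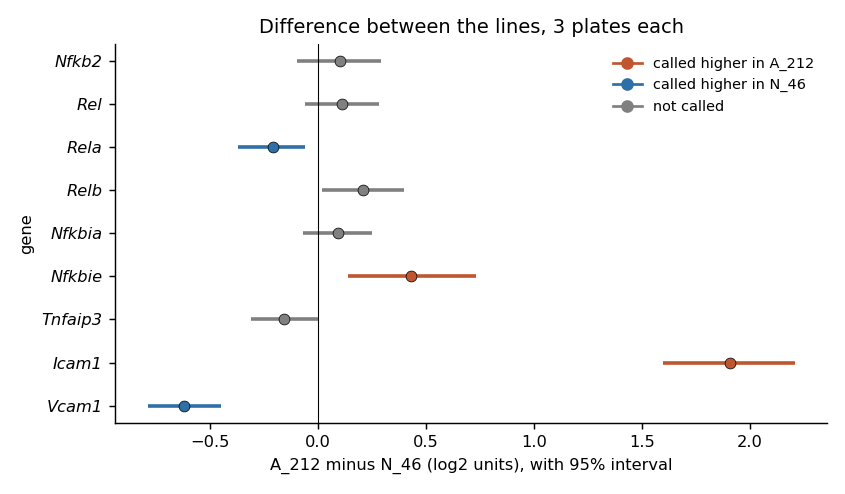
Difference between the lines for each measured member (A_212 minus N_46, log2 units), with the 95% interval of the limma fit over 3 plates per line. The intervals of Icam1, Nfkbie, Relb, Rela, Tnfaip3 and Vcam1 exclude 0, that of Tnfaip3 narrowly, and of these Relb and Tnfaip3 did not pass after adjustment over all genes.

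The subunits differed little. Rela, on chromosome 19, encodes the subunit that carries the main transactivation domain of the commonest NF-kB dimer. Its probe set read -0.05, -0.11 and -0.15 in A_212 and 0.16, 0.12 and 0.05 in N_46. The lines did not overlap, but they lay close together. The difference was -0.21 ± 0.07 (SE), or 1.16-fold higher in N_46, with a limma adjusted p of 0.035. The call was lost when arrays were set to the same median (-0.18, adjusted p = 0.076) or to the same 75th percentile (-0.20, adjusted p = 0.057). It was also lost without A_212 replicate 2 (0.077) or 3 (0.065) and without N_46 replicate 1 (0.090), 2 (0.11) or 3 (0.059), and it held without A_212 replicate 1 (0.045).

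Relb, on chromosome 7, encodes the partner of the processed Nfkb2 product in the alternative NF-kB pathway. It read 0.02, 0.30 and 0.07 in A_212 and -0.13, -0.02 and -0.09 in N_46. The A_212 plates were all higher, with replicate 2 standing above the other 2. The difference of 0.21 ± 0.09 (SE) did not pass (95% interval 0.02 to 0.40, limma adjusted p = 0.080), nor under any of 12 alternatives, where the adjusted p was between 0.052 and 0.27.

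Nfkb2 itself encodes a precursor that acts as an inhibitor until it is processed to a DNA-binding subunit. Its mean values were -0.02, 0.01 and 0.12 in A_212 and -0.22, 0.04 and 0.00 in N_46. The lines overlapped, and N_46 replicate 1 was the lowest plate. The difference was 0.10 ± 0.09 (SE), with a 95% interval of -0.10 to 0.29 and a limma adjusted p of 0.41. Its 2 probe sets read different sizes, 0.20 (1425902_a_at, adjusted p = 0.19) and -0.01 (1429128_x_at, adjusted p = 0.97). The second is of a type that can also match other transcripts.

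Rel, on chromosome 11, encodes a subunit best known from lymphocytes. It read 0.02, 0.00 and 0.05 in A_212 and -0.21, 0.00 and -0.06 in N_46. A_212 replicate 2 and N_46 replicate 2 met at the same value, and N_46 replicate 1 was again the lowest. The difference was 0.11 ± 0.08 (SE, 95% interval -0.06 to 0.28, limma adjusted p = 0.28). For Nfkb2 and Rel the intervals leave room for a difference of up to about 0.29 on the log2 scale in favour of A_212.

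The inhibitors did not move together. Nfkbie, on chromosome 17, encodes an IkB protein that binds Rel-containing and Rela-containing dimers. Its probe set read 0.03, 0.67 and 0.42 in A_212 and -0.03, -0.08 and -0.07 in N_46. All A_212 plates were higher, but A_212 replicate 1 lay next to the N_46 plates, which were themselves close together. The difference was 0.43 ± 0.13 (SE), or 1.35-fold, with a 95% interval of 0.14 to 0.73 and a limma adjusted p of 0.025. The size rested on single plates: it was 0.28 (adjusted p = 0.086) without A_212 replicate 2 and 0.60 (adjusted p = 0.00077) without A_212 replicate 1. The call was also lost without A_212 replicate 3 (0.41, limma adjusted p = 0.079), N_46 replicate 2 (0.42, 0.058) or N_46 replicate 3 (0.43, 0.055). In these fits the size hardly changed. Its SD in A_212, 0.32, exceeded that of 98.6% of genes in that line.

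Nfkbia, on chromosome 12, encodes the main IkB protein, whose resynthesis ends an NF-kB response. Over 4 probe sets it read -0.05, 0.09 and 0.08 in A_212 and 0.01, -0.08 and -0.07 in N_46. The lines overlapped, with N_46 replicate 1 above A_212 replicate 1. The difference was 0.09 ± 0.07 (SE), with a 95% interval of -0.07 to 0.25 and a limma adjusted p of 0.37. The 4 probe sets lay between 0.05 and 0.14, and none was called.

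Tnfaip3, on chromosome 10, encodes a ubiquitin-editing enzyme that shuts off signalling upstream of the IkB kinase. It read -0.03, -0.11 and -0.08 in A_212 and 0.11, 0.12 and 0.03 in N_46. The N_46 plates were all higher, by a small margin. The difference of -0.16 ± 0.07 (SE, 95% interval -0.31 to 0.00) did not pass (limma adjusted p = 0.097), and it did not pass under any of 12 alternatives.

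**Figure D3:**
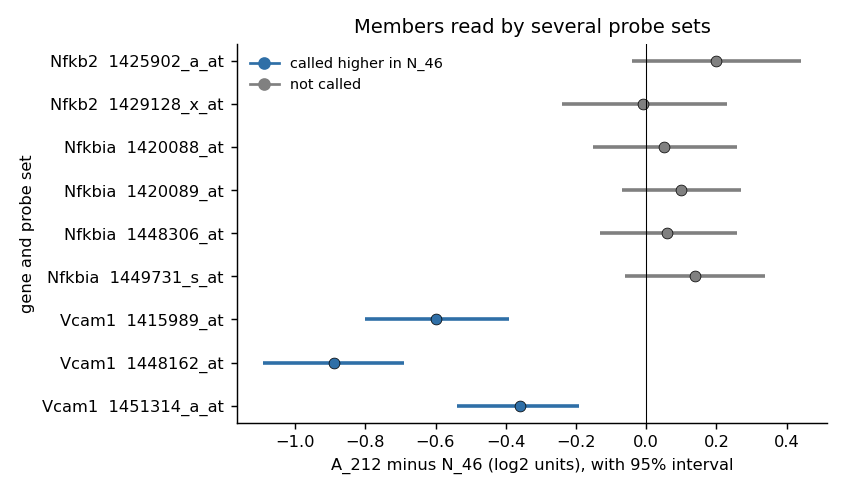
Difference between the lines (A_212 minus N_46, log2 units, with 95% intervals) for the probe sets of the members that have more than 1. The 3 probe sets of Vcam1 lie between -0.89 and -0.36, the 4 of Nfkbia between 0.05 and 0.14, and the 2 of Nfkb2 at 0.20 and -0.01.

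Probe set by probe set, 5 of the 15 were called, or 33.3%, where 37.4% of all 20380 single-gene probe sets were. They were those of Icam1 and Nfkbie and the 3 of Vcam1. The Rela probe set, whose value is the gene's own, missed the threshold when adjusted over probe sets (adjusted p = 0.052). Among the A_212 plates, replicate 2 was the highest and replicate 1 the lowest for 4 of the 9 members (Icam1, Nfkbie, Relb and Nfkbia). This order was found for 30 of the 142 other pathway genes described below (21.1%) and for 16.0% of all genes. It was not part of the planned design, so these shares are description and no test. Averaged over the 9 members, A_212 replicate 2 deviated from the line mean by 0.09 and replicate 1 by -0.09, and N_46 plates deviated by -0.03 to 0.05. The A_212 averages came mostly from Icam1 (0.37 and -0.27), Nfkbie (0.30 and -0.34) and Relb (0.17 and -0.11). In these 2 plates the other members deviated by -0.09 to 0.06. Whether the plates differed in handling was not tested.

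Other genes of the pathway differed in both directions. In 8 lists arranged by role, 142 genes were measured, of which 37 (26.1%) were called higher in A_212, 23 (16.2%) higher in N_46 and 82 not called, with a median difference of 0.00. Of all genes, as given above, 18.3% and 20.9% were called. By list, 12.5% to 62.5% of the genes were called in either direction, against 39.2% of all genes. The counts of the lists below are to be read beside these shares. The lists were written with earlier results of these data known, so the shares are description and no test. Differences of at least 2-fold were called for 10 of the 142 genes in favour of A_212 (7.04%, against 3.61% of all genes) and for 4 in favour of N_46 (2.82%, against 2.22%). Leaving out 1 plate at a time gave 33 to 40 genes higher in A_212 and 16 to 21 higher in N_46.

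**Figure D4:**
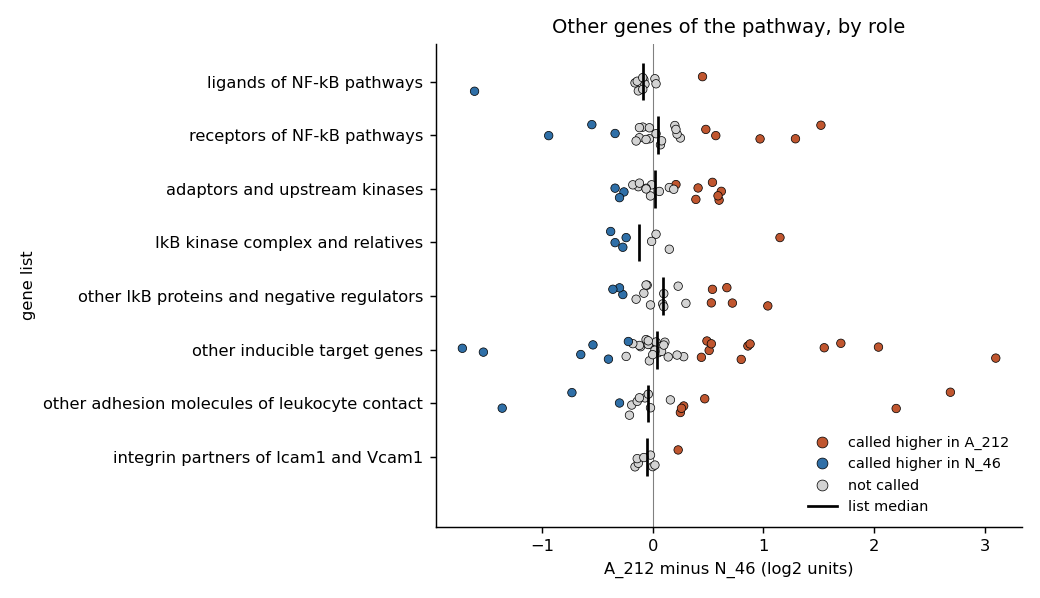
Difference between the lines (A_212 minus N_46, log2 units) for each measured gene of 8 lists of pathway genes, with the list median as a black bar; vertical scatter within a list has no meaning. The medians lie between -0.13 and 0.10, while single target genes reach 3.10 and -1.72.

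Among 11 ligands that act through the pathway, 1 was called in each direction and 9 were not. The interleukin-1 family member Il18 was higher in A_212 (0.45 ± 0.10, SE), and the alarmin Il33 was higher in N_46 (-1.61 ± 0.19). Il33 read -1.47, -0.56 and -0.80 in A_212 and 0.56, 0.74 and 0.70 in N_46, so that A_212 replicate 1 was the lowest plate and the lines were far apart. The inducing cytokines themselves gave no call. Tnf differed by 0.02 ± 0.07 (95% interval -0.13 to 0.17, limma adjusted p = 0.84) and Il1b by -0.07 ± 0.07 (-0.23 to 0.08, adjusted p = 0.46).

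Of 22 receptors and co-receptors, 5 were called higher in A_212, 3 higher in N_46 and 14 not called. Higher in A_212 were the interleukin-1 co-receptor Il1rap (1.52 ± 0.08, SE), Tnfrsf11a, the receptor for the osteoclast factor RANKL (1.29 ± 0.09), and Ly96, the co-receptor that lets Tlr4 bind endotoxin (0.97 ± 0.16). Cd14 (0.57 ± 0.07) and Tlr4 itself (0.48 ± 0.07) were also called higher in A_212. Higher in N_46 were Tnfrsf12a, the receptor of the cytokine TWEAK (-0.94 ± 0.10), Tlr2, which recognises bacterial lipoproteins (-0.55 ± 0.09), and Tnfrsf19 (-0.34 ± 0.09). The main receptor of tumour necrosis factor, Tnfrsf1a, did not pass (0.25 ± 0.10, limma adjusted p = 0.065), but it did with array weights (adjusted p = 0.036), with arrays set to the same median (0.044) and without A_212 replicate 1 (0.33, adjusted p = 0.029). Without A_212 replicate 2 it was 0.16 (limma adjusted p = 0.23). The probe sets of Tnfrsf11a differed in size, between 0.38 and 2.20.

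Among 20 adaptors and upstream kinases, 7 were higher in A_212, 3 higher in N_46 and 10 not called. Birc2 (0.62 ± 0.08, SE) and Birc3 (0.60 ± 0.09), ubiquitin ligases of tumour necrosis factor receptor complexes, and the scaffold gene Card10 (0.59 ± 0.09) were higher in A_212. The value of Birc3 joins probe sets at 0.02 and 1.18, and its call was lost with plain probe sets alone (0.02, limma adjusted p = 0.90). Bcl10 (-0.34 ± 0.08), Tab2 (-0.30 ± 0.08) and Irak1 (-0.26 ± 0.07), which relay receptor signals to the IkB kinase, were higher in N_46. The call of Tab2 was lost without N_46 replicate 1 (limma adjusted p = 0.051) and that of Irak1 without N_46 replicate 2 (0.055).

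Of 8 genes of the IkB kinase complex and its relatives, 4 were higher in N_46, 1 higher in A_212 and 3 not called. The catalytic subunit gene Ikbkb (-0.27 ± 0.08, SE, limma adjusted p = 0.020) and the scaffold subunit gene Ikbkg (-0.34 ± 0.10, adjusted p = 0.022) were called higher in N_46. The probe sets of Ikbkg lay between -0.49 and 0.01 and those of Ikbkb between -0.34 and -0.09. Ikbkb lost its call without A_212 replicate 2 (adjusted p = 0.062), N_46 replicate 2 (0.096) or N_46 replicate 3 (0.075), and Ikbkg without A_212 replicate 3 (0.070) or N_46 replicate 1 (0.074). Tbk1, an IkB kinase relative of the antiviral response, was also higher in N_46 (-0.38 ± 0.09). Its close relative Ikbke was higher in A_212 (1.15 ± 0.13). Ikbke read 0.66, 0.62 and 0.42 in A_212 and -0.43, -0.90 and -0.42 in N_46, with no overlap. Chuk, the other catalytic subunit gene, was not analysed here.

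Among 18 other IkB proteins and negative regulators, 5 were higher in A_212, 3 higher in N_46 and 10 not called. Higher in A_212 were Pias1, a SUMO ligase that restrains NF-kB and STAT activity (1.04 ± 0.08, SE), the nuclear IkB protein gene Bcl3 (0.72 ± 0.11) and Nkiras1 (0.67 ± 0.10), which encodes a small GTPase-like protein that binds IkB proteins. Higher in N_46 were the RNase gene Zc3h12a (-0.36 ± 0.11), Nfkbil1 (-0.30 ± 0.09) and Nfkbib (-0.27 ± 0.07), the gene of a further classical IkB protein. In limma, Nfkbib lost its call without N_46 replicate 2 (adjusted p = 0.057). Nfkbil1 lost it without A_212 replicate 1 (0.078) or 3 (0.050) or N_46 replicate 3 (0.11), and Zc3h12a without A_212 replicate 2 (0.064) or 3 (0.084) or N_46 replicate 1 (0.095) or 3 (0.060) and with array weights (0.050). Set beside the members, Nfkbie was thus higher in A_212, Nfkbib higher in N_46 and Nfkbia not called.

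Of 38 other inducible target genes, 11 were higher in A_212, 6 higher in N_46 and 21 not called. The largest difference was that of Tnfaip2 (3.10 ± 0.10, SE), a gene first found as induced by tumour necrosis factor, with probe sets at 1.37 and 4.82. The growth factor gene Vegfc (2.04 ± 0.12) and the monocyte chemokine genes Ccl7 (1.70 ± 0.12) and Ccl2 (1.55 ± 0.11) followed. Ccl2 read 0.99, 0.63 and 0.77 in A_212 and -0.63, -0.69 and -0.93 in N_46. As for Icam1, the lines were far apart, but here A_212 replicate 1 was the highest of its line. Higher in N_46 were Myc (-1.72 ± 0.12), the cyclin gene Ccnd1 (-1.53 ± 0.14) and Csf1 (-0.65 ± 0.08), of which Myc and Ccnd1 are targets of many pathways besides NF-kB. The probe sets of Csf1 lay between -1.22 and 0.01. Il6 did not pass (0.28 ± 0.13, limma adjusted p = 0.13), with lines that overlapped. It passed without A_212 replicate 1 (0.42, adjusted p = 0.020) and with the replicate block (adjusted p = 0.040), and it was 0.15 (adjusted p = 0.43) without A_212 replicate 2.

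Among 17 other adhesion molecules of leukocyte contact, 6 were higher in A_212, 3 higher in N_46 and 8 not called. The sialomucin gene Cd34 (2.69 ± 0.18, SE), Alcam (2.20 ± 0.09), of the immunoglobulin family, and the junctional gene Jam2 (0.47 ± 0.09) were higher in A_212. Podxl (-1.36 ± 0.09), Mcam (-0.73 ± 0.07) and Madcam1 (-0.30 ± 0.09) were higher in N_46, the first with probe sets at -2.15 and -0.57. Madcam1 lost its call without A_212 replicate 1 (limma adjusted p = 0.096) or 2 (0.099) or N_46 replicate 2 (0.092) or 3 (0.071). Of 8 genes for chains of the integrins that bind Icam1 and Vcam1, 1 was called, Itgb1, higher in A_212 (0.23 ± 0.07, limma adjusted p = 0.031), and that call was lost with plain probe sets alone (0.17, adjusted p = 0.13) and without A_212 replicate 1 (0.10) or 3 (0.051) or N_46 replicate 1 (0.063) or 3 (0.14). Itga4 differed by -0.16 ± 0.11 (adjusted p = 0.27).

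Icam1 and Vcam1 are also genes of endothelial, mesenchymal and myeloid cells, and markers of those cells were read on the same arrays. Over 5 marker lists, neuronal and astrocyte markers included, 20.0% to 60.0% were called in either direction. Of all genes 39.2% were, 18.3% higher in A_212 and 20.9% higher in N_46. Among 15 markers of fibroblasts and mesenchyme, 8 (53.3%) were called higher in A_212 and 1 (6.67%) in N_46, and 6 were not called. Their mean centred value was 0.49 to 0.65 in the A_212 plates and -0.63 to -0.45 in the N_46 plates, and the median difference over the list was 0.35. Postn (5.14), Col3a1 (3.59) and Thy1 (3.41) differed most, and Col1a1 (-0.55) was the marker called higher in N_46. Of 14 endothelial markers, 3 were higher in A_212 and 4 higher in N_46, with mean values of -0.05 to 0.17 and of -0.06 to -0.04, and with Eng (2.44) and Plvap (-1.46) at the ends. Of 15 microglia and macrophage markers, 1 was higher in A_212, Tmem119 (3.26), and 2 were higher in N_46, Cd68 (-0.28) and Trem2 (-0.24), and 12 were not called. Cd68 lost its call without A_212 replicate 1 or 3 or N_46 replicate 1 or 3 (limma adjusted p = 0.053 to 0.062), and Trem2 without A_212 replicate 1 or N_46 replicate 1 or 2 (0.056 to 0.087) and with plain probe sets alone (-0.11, adjusted p = 0.34). Of 15 neuronal markers, 3 were higher in A_212, Stmn2 (3.09), Eno2 (1.47) and Tubb3 (1.13). Higher in N_46 were 2, by less, Map2 (-0.25) and Gap43 (-0.24). Map2 lost its call without N_46 replicate 2 or 3 (limma adjusted p = 0.057 and 0.056). Gap43 lost it without A_212 replicate 2 (0.064) or N_46 replicate 2 (0.087). Of 10 astrocyte markers, 3 were higher in A_212, Apoe (1.17), Aldoc (0.83) and Sox9 (0.35). The 2 higher in N_46 were Slc1a3 (-2.47) and Gja1 (-1.3). With plain probe sets alone Aldoc lost its call (0.17, limma adjusted p = 0.3). Because the values are centred, it cannot be read which of these markers were absent, nor whether either line had the level of a neuron's genes that its label implies. The part of such cell identities in the differences of Icam1 and Vcam1 was not tested.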

How the data were processed

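RNA of 6 plates was measured on an Affymetrix mouse array. The authors deposited values on a log scale, taken here as log2 because RMA, which gives log2, is named in the submitters' processing notes. Neither the base nor the RMA version is given in the sources used here, and the deposited values alone do not fix the base. The centring to a median of 0 (within 1e-05) was found in the values, and the step that made it is not described. The platform annotation gave the gene of each probe set: 20380 of 22690 had 1 gene, and those with several (691) or none (1555) and 64 controls were left out. Gene symbols were looked up in RefSeq (GRCm38.p6), where 20351 probe sets matched and 0 symbols changed.

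Samples were grouped by the line in their titles. Genes were fitted with limma 3.58.1 (lmFit, eBayes, two-sided) in R 4.3.3 and adjusted by Benjamini-Hochberg over 12393 genes. The script was tested on simulated data. The members and lists were chosen with earlier results of these data known. The design file's rule named all members, up to 3 called, non-overlapping genes each way per list, and 12 fixed genes. Of these some are given in the text. Alternatives were same-median and same-75th-percentile scaling, array weights, a replicate block, plain probe sets, robust eBayes and each plate left out. Tables and figures used Python 3.11.15, pandas 2.3.3, numpy 2.4.6 and matplotlib 3.10.9.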

Additional observations from a re-analysis of the deposited data

How the results depend on the processing

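Icam1, Vcam1, Nfkb2, Rel, Relb, Nfkbia and Tnfaip3 kept their direction and their side of the threshold under every alternative in which they were measured, 12 each or 11 for Nfkb2, which has no plain probe set. Members called higher in A_212 numbered 2 and ranged from 1 to 2 when single plates were left out. With plain probe sets alone 6 members are measured. Nfkbie has no plain probe set, so that Icam1 was the 1 member then called higher in A_212. Members called higher in N_46 numbered 2 and ranged from 1 to 2 without single plates. They fell to 1 with arrays set to the same median and to the same 75th percentile. Rela has no plain probe set either, so that Vcam1 was the 1 member called higher in N_46 with plain probe sets. Rela was weaker at the same median (-0.18) and at the same 75th percentile (-0.20), with a range of -0.25 to -0.19 without single plates, and Nfkbie ranged from 0.28 to 0.60. The probe set of Nfkb2 at -0.01 had the opposite sign to the gene's mean. Apart from the members that plain probe sets leave out, the cause of these changes was not tested. Plates that share a replicate number deviated from their line means with correlations over genes of -0.0272, -0.0122 and 0.0932, so the numbers were not taken as pairs. A_212 replicate 1 correlated best with N_46 replicate 2 (0.116). With the replicate number as a block, 2258 genes were called higher in A_212 and 2576 higher in N_46, against 2267 and 2586, and no member's call changed, while Il6 gained a call (limma adjusted p = 0.040). Arrays set to the same median turned this balance, with 2472 genes called higher in A_212 and 2284 higher in N_46. The shares of all genes by direction thus depend on the scaling. Of 769 values of 65 named pathway and marker genes under the alternatives, 39 lost and 5 gained a call, and 0 changed sign. Array data give no depth, and with 3 plates per line their number limits the precision.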
